A study of Mus musculus with 18 samples.

Results

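The mitochondrial respiratory chain passes electrons from NADH and succinate to oxygen through complexes I to IV and uses the proton gradient that results to make ATP at complex V. Most of its subunits are encoded in the nucleus, and their promoters were the object of the measurements described here. Members were all protein-coding autosomal genes whose symbols begin with Nduf (complex I, NADH dehydrogenase), Uqcr (complex III, cytochrome bc1), Atp5 (complex V, ATP synthase) or Cox4 to Cox8 (complex IV, cytochrome c oxidase), together with Sdha to Sdhd (complex II, succinate dehydrogenase). The rule found 88 genes among 21281 protein-coding autosomal genes of the mm9 annotation. It was applied to symbols only and used no measured value, but it was set with earlier results of these data known. Complex I had 40 members, complex II 4, complex III 8, complex IV 18 and complex V 18. Another 3 genes with such symbols lie on chromosome X and were left out.

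The prefixes took in more than enzyme subunits. Of the 88 genes, 4 encode assembly factors of complex I, 7 encode core subunits of complex I and 8 encode isoforms known from muscle, heart, lung, testis or low oxygen. A further 5 were matched by name only: Cox4nb, the neighbour of Cox4i1, encodes a protein of the endoplasmic reticulum, Cox7a2l encodes a factor of supercomplex assembly, Atp5s and Atp5sl are not subunits of the enzyme in the strict sense, and Atp5l-ps1 carries the name of a pseudogene. The remaining 64 were other structural subunits.

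Accessible chromatin was profiled by formaldehyde-assisted isolation of regulatory elements (FAIRE), which recovers DNA that is not tightly held in nucleosomes, followed by sequencing. Livers came from male mice of 9 strains fed a high-fat/high-sucrose diet for 8 weeks from 8 weeks of age, 2 mice per strain. The 7 inbred strains were C57BL/6J, DBA/2J, CBA/J, A/J, C3H/HeJ, BALB/cJ and AKR/J. The other 2, BXH19/TyJ and BXH2/TyJ, are recombinant inbred, that is, fixed mosaics of the C57BL/6J and C3H/HeJ genomes. All mice were on the same diet, and no mice on another diet were compared. Each strain had 1 list of peaks made from both of its mice, so every value below is 1 value per strain without a replicate error, and no test between strains was possible. The tissue was whole liver, in which fewer cells with an open promoter and a less open promoter in each cell cannot be told apart.

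The 9 lists held between 26769 (DBA/2J) and 30613 (CBA/J) peaks with median widths of 376 bp (DBA/2J) to 542 bp (BALB/cJ), and the signal scale differed between lists. Peak height is therefore given as a percentile within the list of the strain, where 100 is the highest signal of that list. Merging all lists gave 51957 sites, and a gene was said to have a promoter peak in a strain when a peak of that strain lay in a merged site within 1 kb of a transcription start site of the gene. Where a gene had several such peaks in a strain, the highest was taken. A promoter that is not in a list may still have been accessible below the threshold of the peak caller. The liver label was checked on promoters of marker genes. Of 8 hepatocyte genes, 3 (Apoa1, Apob, Hnf4a) were called in all 9 lists, against 42.4% of all protein-coding autosomal genes. The other 5 were called in some lists, with Tat in 4, Alb in 2, and Cps1 and Fgb in 1 each. Of 4 leukocyte genes none was called in any list, and the endothelial, stellate and bile duct genes were called in some lists or none except Sox9, which was called in all 9. Among 7 genes of other organs, Actn3 and Ins2 were called in all 9 lists and 4 in none. Calls at these promoters thus do not identify the tissue by themselves.

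For orientation, the 250 bases upstream of the most used start site are shown for a few members whose results are described below, from the C57BL/6J reference genome (NCBIM37, mm9), 5′ to 3′ in the direction of transcription. Ndufb4 (chr16:37654540-37654789, minus strand) and Sdhb (chr4:140516868-140517117, plus strand) had the highest mean percentiles of complex I and of complex II, and Cox6a1 (chr5:115798991-115799240, minus strand) is shown for its NRF1 letters. Capitals mark the letters of motifs that were searched on both strands: GCATGCGC and GCACGCGC for NRF1, CCGGAAG for ETS factors such as GABPA, AAGATGG for YY1, GGGCGG for SP1, TCAAGGTCA for ERRA, TGACGTCA for CREB, CCAAT for NFY and TATAAA for the TATA box.
Ndufb4: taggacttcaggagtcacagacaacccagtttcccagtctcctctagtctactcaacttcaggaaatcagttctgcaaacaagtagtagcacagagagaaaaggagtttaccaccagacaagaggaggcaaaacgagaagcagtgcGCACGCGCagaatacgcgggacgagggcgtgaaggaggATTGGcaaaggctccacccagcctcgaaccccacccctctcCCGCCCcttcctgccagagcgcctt
Sdhb: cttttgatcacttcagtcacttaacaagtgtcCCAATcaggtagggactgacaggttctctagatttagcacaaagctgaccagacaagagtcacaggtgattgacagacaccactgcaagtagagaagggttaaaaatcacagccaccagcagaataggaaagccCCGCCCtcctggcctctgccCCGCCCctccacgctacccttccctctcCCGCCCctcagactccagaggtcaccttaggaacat
Cox6a1: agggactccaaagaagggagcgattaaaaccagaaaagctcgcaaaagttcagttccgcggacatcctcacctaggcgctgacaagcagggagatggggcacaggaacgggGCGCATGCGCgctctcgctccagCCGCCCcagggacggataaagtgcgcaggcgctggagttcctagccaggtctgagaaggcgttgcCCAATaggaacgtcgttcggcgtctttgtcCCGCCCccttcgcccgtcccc

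The next stretches lie at promoters whose calls differed between strains or were absent. Atp5o (chr16:91931933-91932182, minus strand) and Cox7a1 (chr7:30968940-30969189, plus strand) were called in some lists only, and Cox8b (chr7:148086346-148086595, minus strand) was called in no list. The 177 bases between the divergent start sites of Cox4nb and Cox4i1 (chr8:123192013-123192189, plus strand) are given in the direction of Cox4i1. They hold the SP1 letters 8 times, with overlaps, and the ETS letters once.
Atp5o: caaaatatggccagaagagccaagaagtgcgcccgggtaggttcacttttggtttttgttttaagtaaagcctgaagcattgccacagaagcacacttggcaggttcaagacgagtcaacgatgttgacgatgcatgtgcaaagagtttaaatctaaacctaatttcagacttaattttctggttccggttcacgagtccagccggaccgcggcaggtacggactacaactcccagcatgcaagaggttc
Cox7a1: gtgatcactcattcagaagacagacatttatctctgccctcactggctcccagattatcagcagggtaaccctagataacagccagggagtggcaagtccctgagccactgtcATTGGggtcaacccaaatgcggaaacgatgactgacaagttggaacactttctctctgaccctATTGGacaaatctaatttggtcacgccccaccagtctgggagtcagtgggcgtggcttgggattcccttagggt
Cox8b: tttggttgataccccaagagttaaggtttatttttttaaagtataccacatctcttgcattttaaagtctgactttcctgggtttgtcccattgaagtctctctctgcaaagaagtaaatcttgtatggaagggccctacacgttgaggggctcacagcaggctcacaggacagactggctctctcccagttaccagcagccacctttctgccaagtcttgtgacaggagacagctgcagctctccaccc
Cox4nb-Cox4i1: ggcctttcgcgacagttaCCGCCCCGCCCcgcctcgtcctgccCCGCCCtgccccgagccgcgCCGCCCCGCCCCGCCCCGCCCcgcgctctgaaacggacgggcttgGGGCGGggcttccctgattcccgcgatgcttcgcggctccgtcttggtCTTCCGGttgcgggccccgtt

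Respiratory chain promoters were called in nearly every strain. A promoter peak was called in all 9 lists for 74 of 88 members (84.1%), against 42.4% of all protein-coding autosomal genes. Another 8 members (9.09%) were called in some lists only, against 18.5% of all genes, and 6 members (6.82%) in none, against 39.1%. The split between all and some lists depended on what counted as called. With only the 20000 highest peaks of each list, 14 members were called in some lists only. When a peak had to cover at least 50% of the merged site, a setting added after seeing the data, 42 members were called in all lists and 40 in some. These settings were not run on all genes, so it is not known whether other genes would lose calls to the same extent. The 82 members with a promoter peak had 98 promoter sites between them.

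The share hardly moved from strain to strain. In A/J, 81 members (92.0%) had a promoter peak against 57.8% of all genes, in AKR/J 79 (89.8%) against 49.8% and in BALB/cJ 82 (93.2%) against 49.9%. In C57BL/6J the count was 78 (88.6%) against 47.7%, in C3H/HeJ 81 (92.0%) against 51.3% and in CBA/J 80 (90.9%) against 50.2%. In DBA/2J it was 80 (90.9%) against 46.7%, in BXH2/TyJ 81 (92.0%) against 53.5% and in BXH19/TyJ 80 (90.9%) against 50.6%. The lowest share, in C57BL/6J, had an exact 95% binomial interval of 80.1 to 94.4% and the highest, in BALB/cJ, one of 85.7 to 97.5%. These intervals cover counting error over 88 genes only. The same genes were scored in every strain, so the intervals do not test a difference between strains. Over all genes the shares ranged more, from 46.7% in DBA/2J, the shortest list, to 57.8% in A/J. Member shares lie near the upper limit of a share, which leaves them less room to range, and the comparison does not allow for that.

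**Figure D1:**
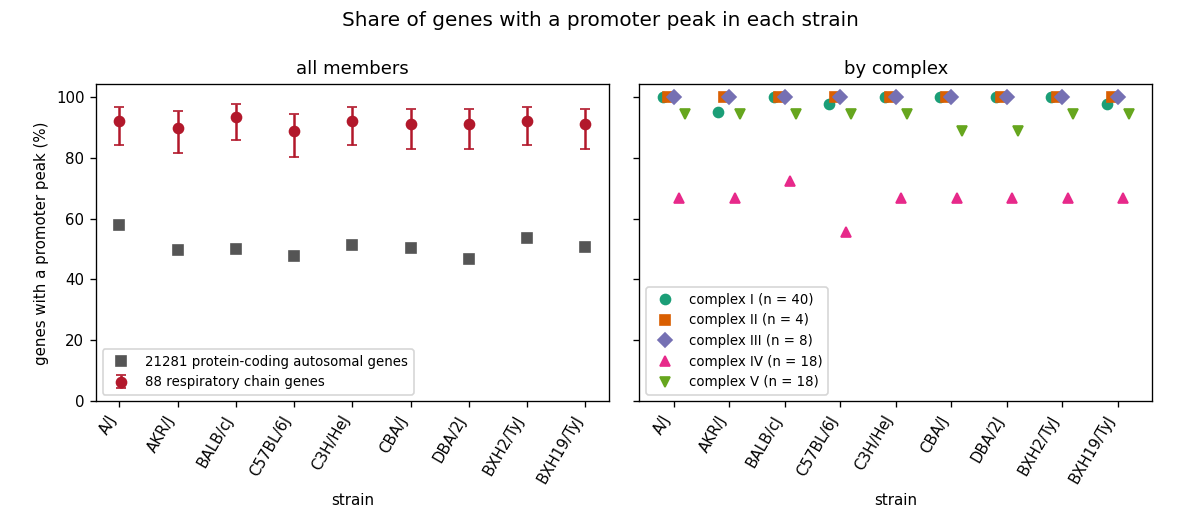
Share of genes with a promoter peak in each strain. On the left, red points are the 88 members with exact 95% binomial intervals and grey squares all protein-coding autosomal genes; on the right, each symbol is the share within 1 complex. Members sit between 88.6 and 93.2%, all genes between 46.7 and 57.8%, and complex IV is the lowest complex in every strain.

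Called promoters were also moderately high in their lists. The median percentile of member promoter peaks ran from 81.4 in A/J to 88.2 in C57BL/6J, against 78.8 (C3H/HeJ) to 81.6 (BXH2/TyJ) over all genes with a promoter peak. Among genes called in all 9 lists, the median of the mean percentiles was 85.1 for members and 83.2 for all such genes, and 58 of 74 members (78.4%) against 66.9% had a mean over 75. Peaks of members were centred on their start sites: depending on the strain, 76.5 to 85.2% of member peaks had their summit within 100 bp of a start site, against 59.5 to 64.9% over all genes. The median summit lay 16 to 38.5 bp upstream of the nearest start site, depending on the strain.

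Percentiles of members varied a little less between strains than those of other genes called throughout. The median SD over the 9 strains was 5.16 percentiles for the 74 members and 6.45 for all 9017 genes called in all lists. An SD over 20 was found for 3 members (4.05%), Cox7a2l and Ndufab1 among them, against 5.39% of those genes. Members also stood somewhat higher on the bounded percentile scale, and the SDs were not adjusted for that.

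**Figure D2:**
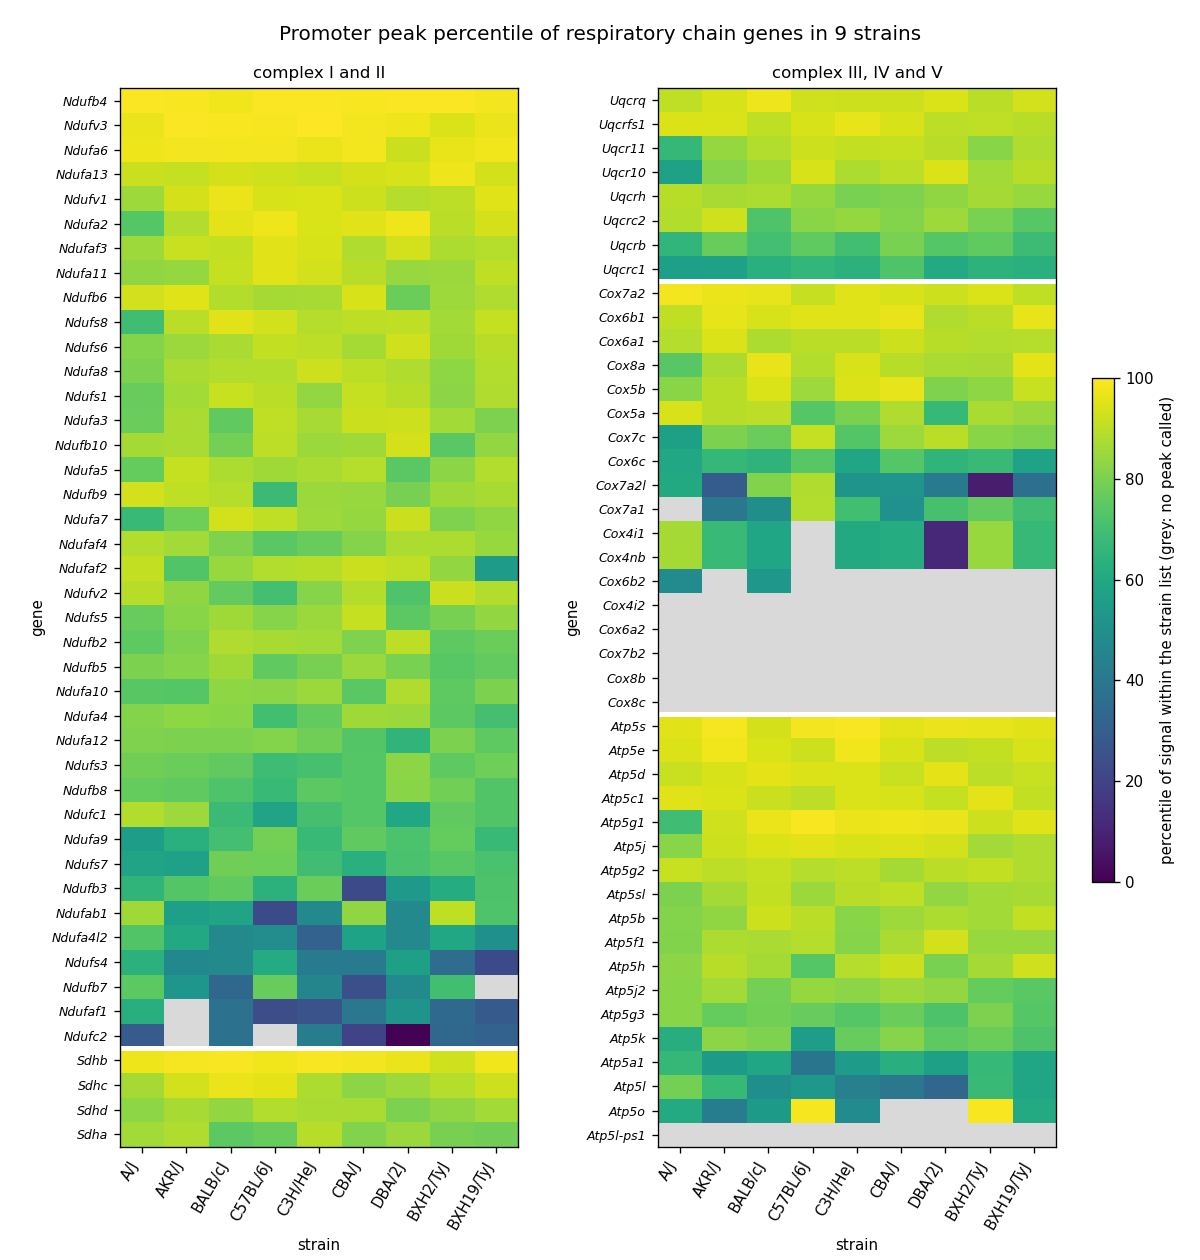
Percentile of the promoter peak of the members (rows, ordered within complexes by the number of lists and then by mean) in each of the 9 strains (columns). Yellow is the top of a list, dark blue the bottom and grey means that no peak was called. The grey block in complex IV holds the isoforms of other tissues, and single grey cells mark promoters called in some strains only.

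Complex I is the entry point for electrons from NADH. Its 40 members had a promoter peak in 95 to 100% of cases in each strain, 37 were called in all 9 lists, and the other 3 (Ndufaf1, Ndufb7 and Ndufc2) in some. All 7 core subunits, which carry the flavin, the iron-sulfur clusters and the quinone site, were called in every list. Of the 4 assembly factors, Ndufaf1 was absent from 1 list and the others from none.

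Ndufb4, an accessory subunit of the membrane arm, had the highest promoter of the whole set, with percentiles of 99.3 in A/J, 99.1 in AKR/J, 98.0 in BALB/cJ, 99.5 in C57BL/6J, 99.5 in C3H/HeJ, 99.1 in CBA/J, 99.3 in DBA/2J, 99.4 in BXH2/TyJ and 98.2 in BXH19/TyJ (mean 99.0 ± 0.55, SD over 9 strains). All 9 strains thus placed it in the top few percent of peaks. Its upstream bases, shown above, hold the second NRF1 form, inverted NFY letters and inverted SP1 letters. Ndufv3, an accessory subunit of the NADH-binding part, followed with 94.3 to 99.7 (mean 97.9), and Ndufa6 with 91.8 to 98.2 (mean 97.0).

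At the other end of the fully called complex I genes stood Ndufs4, a subunit of the peripheral arm whose loss causes a Leigh-like encephalopathy in mice. Its percentiles ran from 22.6 in BXH19/TyJ over a median of 46.7 (AKR/J) to 64.3 in A/J, with a mean of 46.3. The second lowest was Ndufa4l2 (mean 52.9), a paralogue of Ndufa4 known as a gene induced by low oxygen. No peak lay on its own start site except in A/J, at the 15.6 percentile. Its 2 sites called in all lists were 845 bp upstream (chr10:126949657-126951150) and 591 bp downstream (chr10:126952586-126954538) of the start, and with a window of 500 bp the gene was called in A/J only.

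Some complex I promoters were called throughout but at very different heights. Ndufab1, the mitochondrial acyl carrier protein, ranged from 22.4 in C57BL/6J to 90.4 in BXH2/TyJ, with 85.8 in A/J, 83.3 in CBA/J, 72.3 in BXH19/TyJ and 47.0 to 58.3 in the remaining 4 strains. Ndufb3, a membrane-arm subunit whose promoter faces Fam126b on the opposite strand, was at 54.3 to 77.5 in 8 strains and at 22.6 in CBA/J. The peak in CBA/J, 635 bp wide, was not narrow for this promoter, whose peaks ran from 256 bp (DBA/2J) to 1045 bp (C57BL/6J and BXH2/TyJ).

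In 3 complex I genes the promoter was missing from 1 or 2 lists, and their means over the lists that held them were 27.7 (Ndufc2), 37.9 (Ndufaf1) and 53.1 (Ndufb7). Ndufc2, a membrane-arm subunit, was not called in AKR/J and C57BL/6J and stood at 28.6 in A/J, 37.7 in BALB/cJ, 41.9 in C3H/HeJ, 20.3 in CBA/J, 0.4 in DBA/2J, 33.4 in BXH2/TyJ and 31.3 in BXH19/TyJ. It was thus in the lower part of every list that held it. Ndufaf1, an assembly factor, was not called in AKR/J and ranged from 23.7 (C57BL/6J) to 62.8 (A/J) in the other 8 lists. Ndufb7, an accessory subunit, was not called in BXH19/TyJ and ranged from 24.6 (CBA/J) to 76.7 (C57BL/6J). The Ndufc2 promoter (chr7:104548399-104549211) also overlapped a site that the authors listed as common, that is, least variable in read counts across the 7 inbred strains. That list does not require a peak call in every strain, and neither AKR/J nor C57BL/6J had a peak there.

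Complex II passes electrons from succinate, and all 4 of its genes were called in every list. Sdhb, the iron-sulfur subunit, was at 97.3 in A/J, 98.6 in AKR/J, 99.2 in BALB/cJ, 97.9 in C57BL/6J, 99.0 in C3H/HeJ, 98.1 in CBA/J, 97.0 in DBA/2J, 92.7 in BXH2/TyJ and 97.9 in BXH19/TyJ (mean 97.5 ± 1.95, SD). It was high throughout, and lowest in BXH2/TyJ. The membrane anchors Sdhc and Sdhd had means of 90.0 and 85.2, and the flavoprotein Sdha one of 82.1. At Sdha and Sdhd the start site of another gene, Ccdc127 and Timm8b in that order, lay on the opposite strand within 1 kb.

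All 8 members of complex III, which hands electrons to cytochrome c, were called in every list. Uqcrq (mean 92.9, range 89.7 to 97.6) and Uqcrfs1, the Rieske iron-sulfur protein (mean 92.6, range 89.4 to 96.3), were highest. Uqcrb (mean 72.8, range 65.6 to 80.0) and the core protein Uqcrc1 (mean 63.2, range 56.6 to 72.4) were lowest. The ranges of the upper and the lower pair did not overlap, but the pairs were chosen as the highest and lowest means of these same values.

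**Figure D3:**
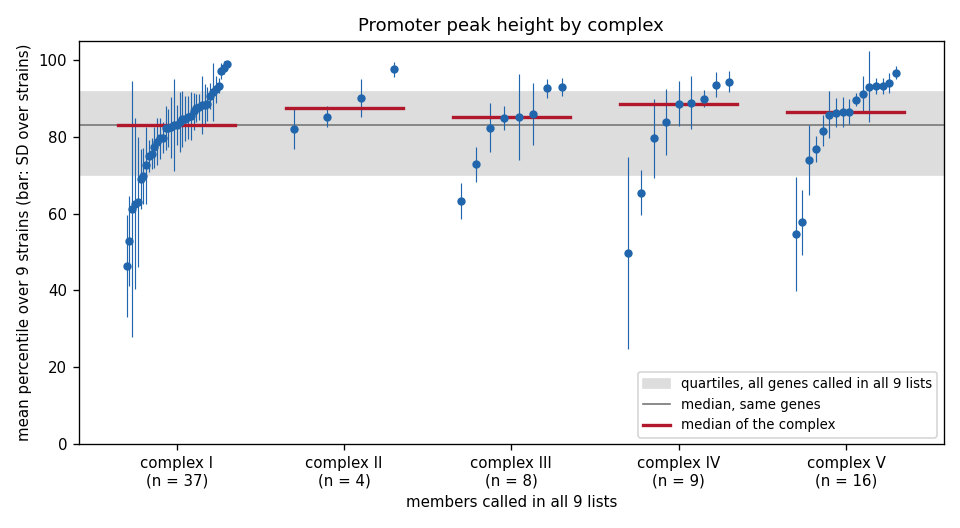
Mean percentile over the 9 strains for each member called in all 9 lists, by complex; bars are the SD over strains and red lines the median of a complex. The grey band and line are the quartiles and the median of all 9017 genes called in all lists. The complexes overlap, with medians of 83.0 for complex I, 87.6 for II, 85.0 for III, 88.6 for IV and 86.5 for V.

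Complex IV, the oxidase that reduces oxygen, had the fewest called promoters. Its share was 72.2% in BALB/cJ, 55.6% in C57BL/6J and 66.7% in the other 7 strains, and 9 of 18 members were called in all lists, 4 in some and 5 in none. Most of the gap lay in the isoforms of other tissues. Of 8 such genes in the whole set, 7 belong to complex IV, and over all 8 only Ndufa4l2 was called in every list. Of the 64 other structural subunits of all complexes, 60 were called in all 9 lists, 4 in some and none in no list.

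The 5 complex IV genes without a peak in any list were Cox4i2, the lung form of subunit IV, Cox6a2 and Cox8b, the heart and muscle forms of subunits VIa and VIII, and Cox7b2 and Cox8c, which are known from testis. Their partners known from liver and most tissues, Cox6a1 and Cox8a, were called in every list, with means of 89.9 and 88.9, whereas Cox4i1, the general partner of Cox4i2, was called in 8 lists and not in C57BL/6J. Cox6b2, a testis form, was called only in A/J (48.3) and BALB/cJ (53.3), with summits 466 and 760 bp downstream of the start site, whereas its general partner Cox6b1 was at 88.2 to 96.8 in all 9 strains (mean 93.5). Cox7a2, the general form of subunit VIIa, had the highest mean of the complex at 94.3.

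Cox7a1, the heart and muscle form of subunit VIIa, differed from these uncalled isoforms. It was not called in A/J but stood at 39.9 in AKR/J, 49.7 in BALB/cJ, 88.7 in C57BL/6J, 69.9 in C3H/HeJ, 50.4 in CBA/J, 70.8 in DBA/2J, 76.0 in BXH2/TyJ and 69.4 in BXH19/TyJ. The peak was called in 8 strains, and in each its summit lay 46 to 96 bp upstream of the start, within the bases shown above, where inverted NFY letters occur 137 and 74 bases upstream. The peaks were narrow, between 278 and 475 bp. Of the markers of other organs, the muscle gene Ckm and the heart gene Myh6 were called in no list, while Actn3, also a muscle gene, was called in all 9.

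Cox4i1, the general form of subunit IV, and Cox4nb shared 1 promoter site (chr8:123191443-123192814), their start sites being 178 bp apart on opposite strands. The site was not called in C57BL/6J. It was at 86.6 in A/J, 67.5 in AKR/J, 58.9 in BALB/cJ, 60.7 in C3H/HeJ, 61.8 in CBA/J, 84.4 in BXH2/TyJ and 66.8 in BXH19/TyJ, with widths of 1194 to 1356 bp. In DBA/2J it was split into a peak of 188 bp at the 11.6 percentile and one of 309 bp at 5.1. C57BL/6J and DBA/2J were also the lists with the narrowest peaks and the lowest median signal, and C57BL/6J is the strain of the reference genome, whose stretch between both start sites is 76.3% G and C. The part of width, signal or base composition in the missing call was not tested.

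Cox7a2l varied most within complex IV. Its percentile was 60.8 in A/J, 29.2 in AKR/J, 80.9 in BALB/cJ, 88.1 in C57BL/6J, 51.6 in C3H/HeJ, 52.0 in CBA/J, 40.7 in DBA/2J, 8.0 in BXH2/TyJ and 36.5 in BXH19/TyJ. BALB/cJ and C57BL/6J were the highest, and the position of the summit separated the same strains. In them it was 320 and 313 bp upstream of the start site, against 0 to 19 bp downstream in the other 7. In A/J and AKR/J the site held 2 peaks, and the position is that of the higher one. The peaks of C3H/HeJ and CBA/J also reached upstream to 83914115 and 83914114, against 83914128 in C57BL/6J. Cox7a2l is known to occur in a shorter protein form in C57BL/6J and BALB/cJ mice. No allele was analysed here, and a link with the peaks was not tested. Both recombinant strains were below both parents.

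Complex V makes ATP. Its share was 88.9% in CBA/J and DBA/2J and 94.4% in the other 7 strains, and 16 of 18 members were called in all lists. Atp5s had the highest mean (96.7) and Atp5e, the small epsilon subunit, the next (94.0). Atp5j, subunit F6, shared its promoter with Gabpa, which encodes the DNA-binding subunit of an ETS regulator of respiratory genes. Their nearest start sites were 31 bp apart, and the peak was at 82.2 (A/J) to 95.4 (C57BL/6J). In the catalytic core, Atp5b, the beta subunit, had a mean of 86.5, equal to the complex median of 86.5 over genes called in all lists. Atp5a1, the alpha subunit, had a lower mean of 57.7, with 39.0 in C57BL/6J and 54.4 to 66.9 in the other strains. Atp5l, subunit g, was lowest among the fully called genes (mean 54.7, from 33.4 in DBA/2J to 79.0 in A/J). Atp5l-ps1 was called in no list.

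Atp5o, the stalk protein that confers oligomycin sensitivity, showed the sharpest contrast of complex V. Its promoter (chr16:91931236-91932489) was at 98.7 in C57BL/6J and 99.2 in BXH2/TyJ, at 61.1 in A/J, 41.9 in AKR/J, 54.5 in BALB/cJ, 48.4 in C3H/HeJ and 61.1 in BXH19/TyJ, and was not called in CBA/J and DBA/2J. The 2 high strains stood apart from the rest. Their summits also lay on the other side of the start site, 41 and 51 bp downstream, against 12 to 45 bp upstream in the 5 strains with lower peaks. Widths were 631 and 833 bp in the high strains and 683 to 1249 bp in the others. Of the recombinant strains, BXH2/TyJ was thus near C57BL/6J and BXH19/TyJ nearer C3H/HeJ, and their genotypes at the locus were not analysed here. None of the letters searched occurs in the 250 bases shown.

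**Figure D4:**
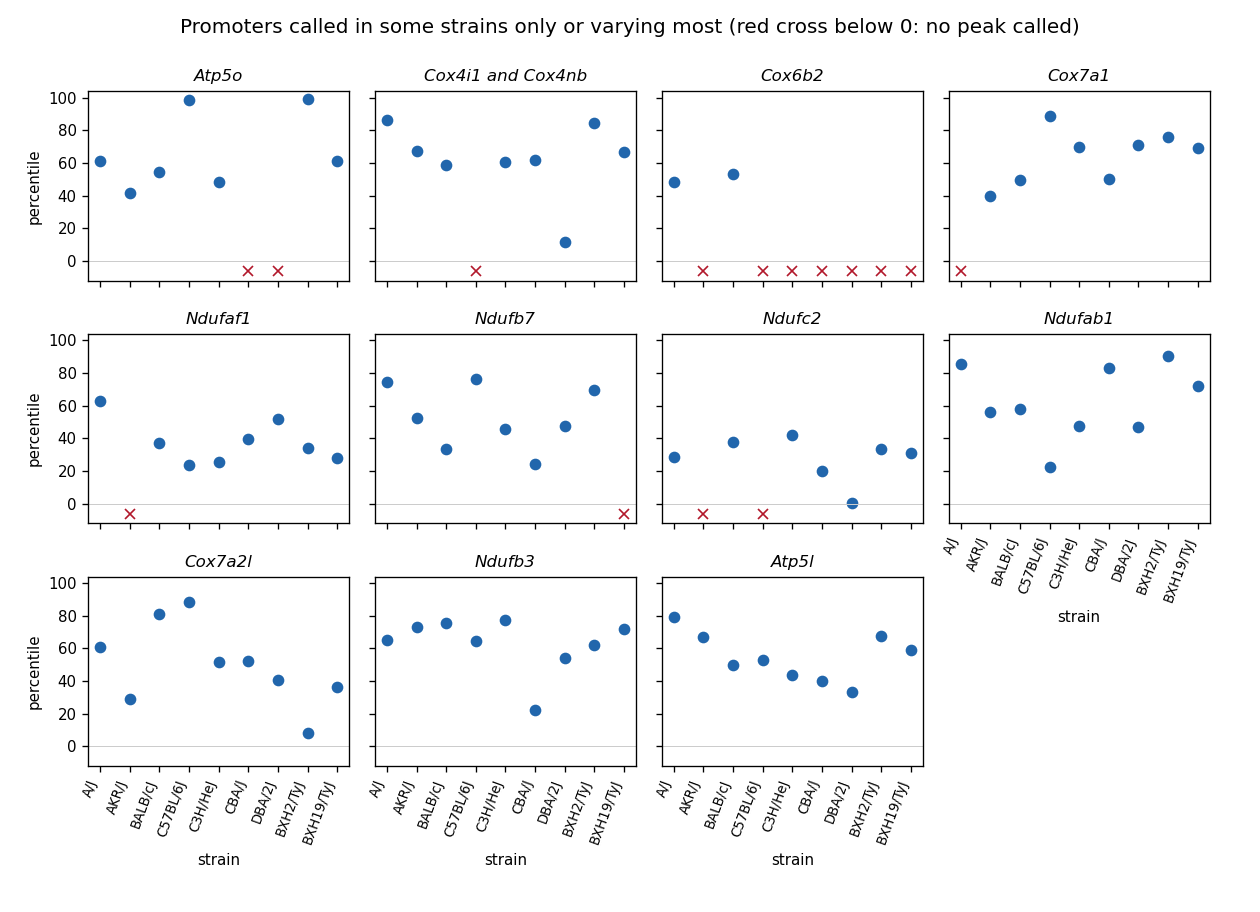
Percentile of the promoter peak in each strain (horizontal axis) for the members called in some lists only and for 4 of the 5 with the largest SD among those called in all 9. Blue points are peaks and red crosses below 0 mark strains without a peak. The panels show 2 high strains for Atp5o and 1 low strain for Ndufb3.

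**Figure D5:**
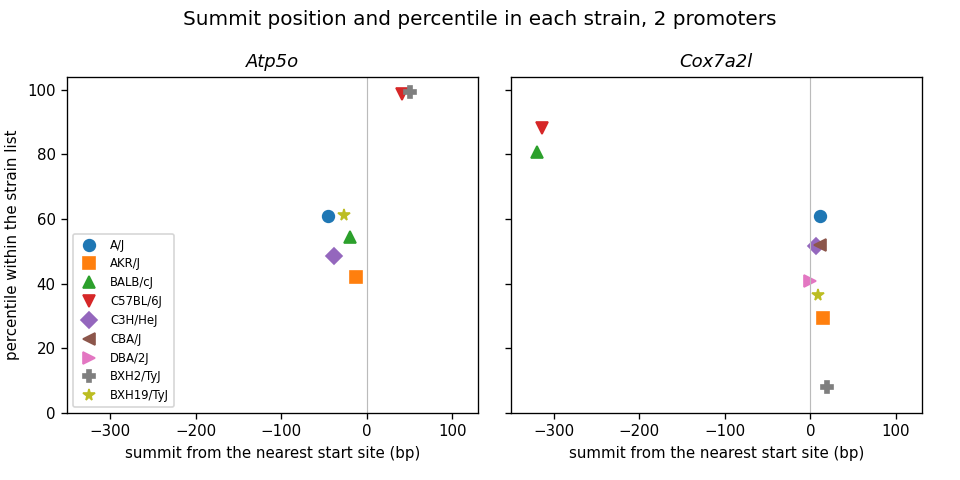
Distance of the summit of the highest peak from the nearest start site in bp (horizontal axis, negative upstream) against percentile for Atp5o and Cox7a2l, 1 symbol per strain. For Atp5o the C57BL/6J and BXH2/TyJ points are downstream and high, for Cox7a2l the BALB/cJ and C57BL/6J points are upstream and high. Strains without a peak are not drawn.

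The summit of the highest peak differed in position between strains at other promoters too. Where a site held several peaks in a strain, the position depended on which of them was highest. Of the 63 members with 1 promoter site called in all lists, 17 (27.0%) had summits more than 200 bp apart between strains, against 18.5% of all such genes, while the median distance between the outermost summits was 42 bp for members and 50 bp over all genes. Among the named genes of this kind the widest spread was that of Atp5a1, whose summits lay between 26 bp upstream and 606 bp downstream. There 2 peaks were called in AKR/J, C57BL/6J, C3H/HeJ, DBA/2J and BXH19/TyJ, so for them this distance need not be the movement of a single summit. The strains with 1 peak differed too. Their summits lay at 576 bp in CBA/J, against -6 in A/J, -24 in BALB/cJ and -22 in BXH2/TyJ (negative upstream).

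C57BL/6J and C3H/HeJ are the parents of both recombinant strains, and 10 members differed between them in the call or by more than 20 percentiles. That was 11.4% of members, against 12.8% of all genes. Of the genes called in either parent it was 12.3% of 81 members, against 24.3% of all genes. Among these members were Atp5o, Cox7a2l, Ndufab1, Cox4i1 with Cox4nb, Ndufb7, Ndufc2, Atp5k and Ndufs4. Atp5k, subunit e of the ATP synthase, was at 56.0 in C57BL/6J, 76.8 in C3H/HeJ, 77.6 in BXH2/TyJ and 71.9 in BXH19/TyJ. Ndufs4 was at 61.6 in C57BL/6J and 41.1 in C3H/HeJ, and at 35.6 and 22.6 in BXH2/TyJ and BXH19/TyJ. At Cox7a2l and Ndufs4 both recombinant strains lay below both parents, and at Ndufab1 above both. At the site of Cox4i1 and Cox4nb they lay at 84.4 and 66.8, above the 60.7 of C3H/HeJ and the missing call of C57BL/6J.

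Members also overlapped sites that the authors listed as least variable across the 7 inbred strains. Such a common site lay within 1 kb of a start site for 14 members (15.9%), against 4.81% of all genes. A listed site, common or variable, can lie only where a peak was called. No promoter peak was called in any list for 6.82% of members, against 39.1% of all genes, and the shares of common and variable sites given here do not allow for that. The 14 members were Ndufa6, Ndufa10, Ndufa13 and Ndufc2 of complex I, Sdhb and Sdhd of complex II, Uqcrb of complex III, Cox6a1, Cox6c and Cox7c of complex IV, and Atp5d, Atp5j, Atp5j2 and Atp5k of complex V. Their percentiles were not uniformly steady: the promoter of Ndufa6, an accessory subunit, kept within 91.8 to 98.2, whereas that of Cox7c, a small accessory subunit, ran from 56.7 in A/J to 91.1 in C57BL/6J. For Cox6a1 the common site was a separate short stretch 965 bp inside the gene, where a peak was called only in CBA/J (10.1) and BXH2/TyJ (9.56). Sites that the authors listed as variable lay within 1 kb of a start site for 2 members (2.27%), against 3.73% of all genes. That at Atp5b (chr10:127525233-127525648) was inside the gene and was called in every list but A/J, whereas the main promoter of Atp5b was at 81.4 to 92.5 in all strains.

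Member promoters were CpG-rich more often than those of all genes. The window ran from 250 bases before to 50 after the start site shared by most annotated protein-coding transcripts. That start can lie outside the called site, as at Atp5j2 (start at 145952931, site ending at 145952641). A gene was called CpG-rich when its observed to expected CpG ratio in the window was at least 0.6. This held for 67 of 88 members (76.1%), against 46.5% of all genes. Among CpG-rich genes, 63 of 67 members (94.0%) were called in all 9 lists, against 69.6% of all CpG-rich genes. Among CpG-poor genes, 11 of 21 members (52.4%) were called in all lists, against 18.7%. None of the 8 isoforms of other tissues was CpG-rich, and none of the CpG-rich members was without a peak in every list.

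Shared promoters were common too. For 29 members (33.0%) a start site of another protein-coding gene lay on the opposite strand within 1 kb, against 12.2% of all genes, and a peak there cannot be assigned to either gene. Among the 59 members with no start site of another gene within 1 kb, 47 (79.7%) were called in all 9 lists, against 36.9% of all such genes.

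The motif letters were searched in the same 300-base windows, where a match is only a description of the letters. GCATGCGC, the NRF1 letters, occurred in 11 members (12.5%) and in 3.36% of all genes, with its second form GCACGCGC in 4 members (4.55%) and 3.82%. The ETS letters CCGGAAG occurred in 17 members (19.3%) and 11.0% of all genes, and the YY1 letters AAGATGG in 11 members (12.5%), 8 of them in complex I, and 6.79% of all genes. These are the letters of factors known as regulators of nuclear genes for mitochondrial proteins, and at least 1 of GCATGCGC, CCGGAAG and AAGATGG occurred in 35 members (39.8%) against 19.5% of all genes. SP1 letters were in 42 members (47.7%) against 44.3%, NFY letters in 33 (37.5%) against 37.6% and the TATA box in 9 (10.2%) against 13.5%. CREB letters were in 5 members (5.68%) against 2.29%, and ERRA letters in 2 (2.27%) against 0.357%.

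Most members have CpG-rich promoters, and the shares came out differently when set against CpG-rich genes. Of 67 CpG-rich members, 13.4% held GCATGCGC, against 6.25% of 9893 CpG-rich genes, and 5.97% held its second form, against 7.68%. CCGGAAG was in 23.9% against 19.4%, AAGATGG in 11.9% against 7.13%, and at least 1 of GCATGCGC, CCGGAAG and AAGATGG in 43.3% against 29.5%. SP1 letters were less frequent in the CpG-rich members, at 52.2% against 73.2%. The remaining shares were 35.8% against 37.0% for NFY, 4.48% against 5.90% for the TATA box, 5.97% against 3.97% for CREB and 2.99% against 0.222% for ERRA. No test was run on these shares.

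Matches did not go with higher peaks for each factor. The median of the mean percentiles was 87.2 for members with GCATGCGC and 83.8 for those without it, 85.9 with and 82.4 without CCGGAAG, and 74.9 with and 84.7 without AAGATGG. One of the 6 members called in no list, Cox8c, also held GCATGCGC, and 14 members held none of the letters searched.

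Other genes of the pathway were called about as often as members. Of 46 such genes found in the annotation, 41 were called in all 9 lists, 4 in some and 1 in none. All 5 electron carriers were called throughout: cytochrome c1 (Cyc1), cytochrome c (Cycs) and the electron transfer flavoprotein genes Etfa, Etfb and Etfdh. Of 26 assembly genes found, 25 were called in all lists, and Atpaf1, a chaperone of the ATP synthase, only in A/J (67.6), C3H/HeJ (8.0) and BXH2/TyJ (58.1).

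Of 15 regulators, 11 were called in all lists. Nrf1 and Gabpb1, a subunit partner of GABPA, were both absent from C57BL/6J and DBA/2J and were at 31.1 to 85.3 and 15.2 to 65.8 in the other 7 lists. Ppargc1a, the coactivator of mitochondrial biogenesis, was absent from DBA/2J and stood at 7.2 (AKR/J) to 54.6 (BALB/cJ) elsewhere. Mterf was called in no list. Esrra, Sp1 and Yy1 were high, with medians over strains of 99.4, 98.7 and 98.8.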

How the data were processed

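FAIRE-seq was performed on liver of 18 mice, 2 from each of 9 strains. Per the study's methods, uniquely mapped, deduplicated reads were placed with Bowtie on mm9 carrying the SNPs of each inbred strain, peaks were called with F-seq per library, and the peaks of both mice of a strain were combined by their reproducibility. Reads of the recombinant strains were placed both on mm9 and on the genome carrying C3H/HeJ SNPs. Which of these the deposited lists come from, the reproducibility threshold and tool versions were not given in the sources used here. Peak lists deposited by the authors give for each peak its position, a signal (F-seq density, the unit used here) and the summit. Position-only lists of variable and common sites, which the authors derived from read counts of the 7 inbred strains with DESeq, were used as positions. The lists hold no read totals; those that the study gives per library were not used here.

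Peaks of all lists were merged where they overlapped or touched, with Python 3.11.15, numpy 2.4.6, pandas 2.3.3 and scipy 1.17.1, and plotted with matplotlib 3.10.9. Start sites were the 5′ ends of all transcripts of protein-coding genes in GENCODE M1, with 2 gene identifiers of Ndufb8 joined. Signals were ranked within a list, ties sharing their mean rank. No test was run between strains. The values of 1 member are not reported here, and its row is left out of the plots by gene. Merging and calling were tested on simulated data. Members, gene lists, motifs and the rule for named genes (partial or absent calls, highest and lowest means per complex, the 5 largest SDs, overlap with a deposited site, shared sites) were chosen with earlier results of these data known. Genes named in passing as partners or neighbours were chosen after their values were seen, as was the second NRF1 form. Alternatives varied the window, the start sites, the overlap, the list length, the members and the strains.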

Additional observations from a re-analysis of the deposited data

Results flagged for a closer look

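In 47 sets of values over the 9 strains (shares, medians and named genes), a strain was marked where it stood apart from the others by Dixon's criterion. Its nominal rate by chance, about 1 of 20 sets, does not apply here. Many genes were named for their spread, partial calls or extreme means in the same values, and the shares are bounded and often tied. In all, 9 values were marked. The share of complex I members with a promoter peak was 95% in AKR/J, next to 97.5% in BXH19/TyJ, and rests on 2 genes, Ndufaf1 and Ndufc2. The share of complex IV members was 55.6% in C57BL/6J, next to 66.7% in A/J, and rests on Cox4i1 and Cox4nb, which share 1 site. That site was at the 11.6 percentile in DBA/2J for both Cox4i1 and Cox4nb, next to 58.9 in BALB/cJ.

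Atp5a1 was at 39.0 in C57BL/6J, next to 54.4 in AKR/J, and Ndufb3 was at 22.6 in CBA/J, next to 54.3 in DBA/2J. The remaining 3 lay at the top of the scale, where small steps suffice: Ndufa13 was at 97.6 in BXH2/TyJ, next to 94.1 in DBA/2J, Ndufa6 at 91.8 in DBA/2J, next to 96.6 in BXH2/TyJ, and Sdhb at 92.7 in BXH2/TyJ, next to 97.0 in DBA/2J.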

How the results depend on the processing

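The mean share of members with a promoter peak over strains was 91.2%, and 20 of 21 alternatives left it within its binomial interval, used here as a yardstick only. The median percentile (85.0) moved by less than the SD between strains (1.81) under all 23. With only the 20000 highest peaks of each list, 14 members were called in some lists only, Cox7a2l, Ndufa4l2, Ndufab1, Ndufb3 and Ndufs4 among the additions. Asking that a peak cover at least 50% of the merged site, a setting added after seeing the data, gave a mean share of 80.9%, a lowest strain share of 62.5%, 42 members called in all lists and 40 in some. Restricting to the 59 members with no start site of another gene within 1 kb, also added later, left 47 called in all lists, by construction fewer. The list-length and overlap settings were run on members only, without the same counts over all genes. The planned overlap of 50% of peak or site is met by every peak and changed nothing. With a window of 2 kb, Cox8b was no longer among the genes without a peak. Leaving out 1 strain at a time gave mean shares of 90.9 to 91.5%, 74 to 76 members called in all lists and 6 to 8 in some; without C57BL/6J, Cox4i1 and Cox4nb were called in all remaining lists. No paired analysis was possible because each list combines both mice of a strain. Peaks just below the threshold limit every absent call.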
